A study of Mus musculus with 3 samples.

Results

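The 10 genes of the AP-1 and ATF transcription factors that are described here were measured in macrophages grown from mouse bone marrow: Fos, Fosb, Fosl1, Fosl2, Jun, Junb, Jund, Atf3, Batf and Batf2. These 10 genes were chosen by name as the Fos group, the Jun group and the ATF3 and BATF factors, out of 55536 gene entries, and all 10 were found in the deposited tables. The cells were primary macrophages of strain C57BL/6J, and every library came from cells stimulated for 480 minutes with an agent at 100 ng/mL. The agent is given as Lipid A, the membrane anchor of lipopolysaccharide, in the sample descriptions but as lipoprotein A in the treatment entries. The series was 1 group of 3 biological replicates, taken from separate biosamples that carry the same donor identifier, and the labels record neither sex nor age. No unstimulated library was part of it, so every value below is a level after stimulation and none is a response.

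AP-1 factors bind DNA as dimers that are held together by a leucine zipper, with a basic region next to it that touches the DNA. Jun proteins pair with each other or with Fos proteins, whereas Fos proteins need a Jun partner, and the dimers recognise a short palindromic site found near many genes of inflammation and proliferation. ATF3 has the same fold and is known in mouse macrophages as a repressor of cytokine genes induced through Toll-like receptors. BATF consists of little more than this fold and lacks a transactivation domain, and BATF and BATF2 work with Jun proteins or interferon regulatory factors.

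Of the 10 genes, 8 were detected, that is, reached 1 TPM in each of the 3 libraries. TPM is a level per transcript length scaled to the same total in every library, so that levels of different genes can be set side by side. The median of the 10 mean levels was 63.1 TPM. Of all 20476 genes with any count, 48.5% were detected and the median was 1.26 TPM. Batf, Atf3, Junb and Batf2 stood highest, Jun and Jund below them, and Fos and Fosl2 lower still. Fosb and Fosl1 lay near the limit of detection. RNA came from whole cultures, so fewer expressing cells and less RNA per cell cannot be told apart.

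**Figure D1:**
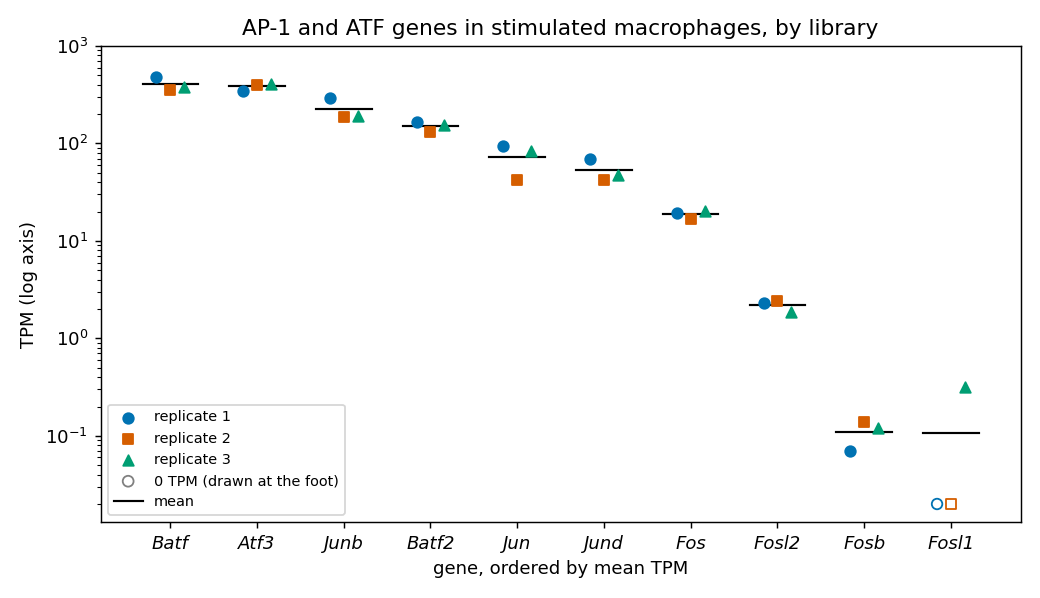
Level of each of the 10 genes in TPM (log axis) by library, with genes ordered by mean and the mean drawn as a line; open symbols at the foot stand for 0 TPM. Mean levels spanned 405 TPM for Batf to 0.107 TPM for Fosl1. Replicate 2 lies below the others for Jun, and Fosl1 has a value above 0 in replicate 3 alone.

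Batf had the highest mean of the 10 genes. Its product pairs with Jun proteins and can block their activity at plain AP-1 sites. The gene (ENSMUSG00000034266.6, mm10 chromosome 12, 85686669 to 85709087, plus strand) stood at 480.2, 356 and 378 TPM in replicates 1, 2 and 3, from 5781, 5581 and 8074 expected counts. Replicate 1 was the high library, and the mean was 405 ± 66.3 TPM (SD, n = 3), at or above the level of 98.1% of the genes with any count. Batf2 (ENSMUSG00000039699.14, chromosome 19, 6140983 to 6172476, plus strand), whose product is known in activated macrophages as a partner of IRF1, stood at 165, 130.2 and 154 TPM. These levels averaged 150 ± 17.6 TPM (SD, n = 3), from 2885, 3042 and 4879 expected counts, with replicate 2 the low library. In every library the Batf2 level lay below the Batf level.

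The coding sequences of this pair show the stretch that makes them bZIP proteins. Each window below runs from the asparagine codon of the basic region, found by its surrounding pattern in the translated reading frame, over 141 bases to the last of 5 heptad positions of the zipper. Capitals mark the heptad codons that encode leucine. Both are on the plus strand of mm10 and cross 1 intron, and they lie within chr12:85689310-85708620 for Batf-201 and chr19:6166510-6171383 for Batf2-201.
Batf: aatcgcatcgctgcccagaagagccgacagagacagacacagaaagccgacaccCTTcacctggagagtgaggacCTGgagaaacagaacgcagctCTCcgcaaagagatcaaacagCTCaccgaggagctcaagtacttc
Batf2: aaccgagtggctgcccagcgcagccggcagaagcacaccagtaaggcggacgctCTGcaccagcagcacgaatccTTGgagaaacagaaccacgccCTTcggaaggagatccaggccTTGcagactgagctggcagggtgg
Batf and Batf2 held a leucine codon at 4 of 5 heptad positions, and the Fos and Jun group genes at 5 of 5. In both, the last heptad codon was the one that does not encode leucine. The windows of Batf and Batf2 were identical at 58.9% of bases, above the 38.3 to 51.8% at which either matched a Fos or Jun group gene.

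Atf3 had nearly the same level as Batf. The gene (ENSMUSG00000026628.13, chromosome 1, 191170296 to 191218039, minus strand) stood at 348, 395 and 409 TPM in replicates 1, 2 and 3, from 10422, 15820 and 22281 expected counts. Its mean was 384 ± 31.9 TPM (SD, n = 3), and here replicate 1 was the low library. The order of Batf and Atf3 was not the same in every library: on the log2(TPM + 0.1) scale Batf minus Atf3 was 0.46, -0.15 and -0.11. A pair is called apart below only where the difference had the same sign in all 3 libraries and its mean exceeded 2 SD of the per-library differences, and Batf and Atf3 were not apart (0.07 ± 0.34, SD, n = 3).

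Among the Jun genes, Junb was highest. JUNB is a weaker activator than JUN at single AP-1 sites and can act as a repressor there. Junb (ENSMUSG00000052837.6, chromosome 8, 84974484 to 84978718, minus strand) stood at 292, 185 and 193 TPM in replicates 1, 2 and 3, from 7846, 6641 and 9438 expected counts. Replicate 1 was well above the others, and the mean was 223 ± 59.4 TPM (SD, n = 3). Jun (ENSMUSG00000052684.4, chromosome 4, 95049034 to 95052222, minus strand), the founding member whose product is phosphorylated by JNK kinases, stood at 93.6, 42.6 and 83 TPM. Its expected counts were 4760, 2914 and 7733, and its mean was 73.1 ± 26.9 TPM (SD, n = 3), with replicate 2 far below the others. Jund (ENSMUSG00000071076.6, chromosome 8, 70698949 to 70700616, plus strand), often described as the constitutively expressed Jun gene, stood at 69.8, 42.4 and 47.04 TPM. Its mean was 53.1 ± 14.7 TPM (SD, n = 3), from 1708, 1379 and 2086 expected counts, and replicate 1 was again the high library.

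The 3 Jun genes encode their bZIP stretch in 1 exon, whereas in the Fos group, Batf and Batf2 the window crosses an intron. The windows are at chr4:95050339-95050479 for Jun-201 and chr8:84977467-84977607 for Junb-201 on the minus strand, and at chr8:70699871-70700011 for Jund-201 on the plus strand. They are shown together to set the reading frames of the group side by side, and capitals again mark leucine codons at heptad positions.
Jun: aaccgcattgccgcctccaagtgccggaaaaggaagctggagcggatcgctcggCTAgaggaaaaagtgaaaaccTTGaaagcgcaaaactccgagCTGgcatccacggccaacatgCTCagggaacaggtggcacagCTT
Junb: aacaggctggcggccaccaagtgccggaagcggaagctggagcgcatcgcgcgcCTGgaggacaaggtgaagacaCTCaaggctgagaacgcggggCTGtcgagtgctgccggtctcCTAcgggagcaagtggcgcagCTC
Jund: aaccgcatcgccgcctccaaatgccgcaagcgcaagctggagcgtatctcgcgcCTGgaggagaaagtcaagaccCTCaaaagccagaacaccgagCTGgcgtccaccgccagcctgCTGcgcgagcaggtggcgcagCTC
Between the Jun genes, 69.5 to 78.0% of the window bases were identical. The G and C share of the window was 66.0% in Junb, 64.5% in Jund and 56.0% in Jun.

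Within the Jun group, Junb made up the largest share in every library. The group summed to 455, 270 and 323 TPM in replicates 1, 2 and 3 (349 ± 95.3 TPM, SD, n = 3). Junb made up 64.1 ± 4.39% of it, Jun 20.7 ± 4.96% and Jund 15.2 ± 0.582% (SD, n = 3 each). Junb was 3.12, 4.35 and 2.33 times the level of Jun, so its lead over Jun held in 3 of 3 libraries but varied in size. Jun minus Jund was 0.42, 0.01 and 0.82 on the log2 scale, and this pair was not apart (0.42 ± 0.41, SD, n = 3). In replicate 2 their levels were nearly equal.

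Fos carried most of the Fos group. It is the classical immediate early gene, transcribed within minutes of a stimulus through SRF and ternary complex factors, and its mRNA is known to be short-lived. Fos (ENSMUSG00000021250.13, chromosome 12, 85473890 to 85477273, plus strand) stood at 19.3, 16.8 and 20.4 TPM in replicates 1, 2 and 3, from 615, 719 and 1178 expected counts, and averaged 18.8 ± 1.81 TPM (SD, n = 3). Fosl2 (ENSMUSG00000029135.10, chromosome 5, 32135801 to 32157842, plus strand), which encodes FRA-2, stood at 2.33, 2.43 and 1.87 TPM. Its mean was 2.21 ± 0.299 TPM (SD, n = 3), from 252, 359 and 375 expected counts, and replicate 3 was the low library.

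The remaining members of the Fos group had few reads. Fosb (ENSMUSG00000003545.3, chromosome 7, 19302696 to 19310051, minus strand) had 1, 9 and 8 expected counts in replicates 1, 2 and 3, and 0.07, 0.14 and 0.12 TPM. The exact Poisson 95% intervals of these counts, 0.0253 to 5.57, 4.12 to 17.1 and 3.45 to 15.8, overlapped. Fosl1 (ENSMUSG00000024912.6, chromosome 19, 5447547 to 5455946, plus strand), which encodes FRA-1, had no counts in replicates 1 and 2 and 1 count in replicate 3, listed as 0.32 TPM. The same interval for a count of 0 runs from 0 to 3.69 counts. What such counts would make in TPM depends on the length of the transcript they come from. Such intervals and limits cover counting error only, and at this depth neither gene's level could be placed above the other (Fosb minus Fosl1 0.37 ± 1.15 on the log2 scale, SD, n = 3).

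The Fos and Fosl2 windows show the stretch that pairs with a Jun zipper, in genes of the same group that differed most among the detected ones. They lie within chr12:85475637-85475894 for Fos-201 and chr5:32150466-32152748 for Fosl2-201, both on the plus strand and both across an intron.
Fos: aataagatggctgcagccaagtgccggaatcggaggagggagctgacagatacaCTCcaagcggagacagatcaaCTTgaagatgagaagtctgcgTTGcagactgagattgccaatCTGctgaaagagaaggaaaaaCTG
Fosl2: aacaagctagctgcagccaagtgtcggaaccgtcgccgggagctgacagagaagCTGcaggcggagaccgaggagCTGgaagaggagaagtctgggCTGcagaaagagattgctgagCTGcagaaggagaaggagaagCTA
The 6 pairs of Fos group genes were identical at 70.2 to 78.0% of window bases, and Fos and Fosl2 at 77.3%. Between Fos and Jun group genes the identity was 45.4 to 56.0% over 12 pairs. These identities are per nucleotide and describe the sequences, not the expression.

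As a group, the Jun genes outweighed the Fos genes. The Fos group summed to 21.7, 19.4 and 22.7 TPM in replicates 1, 2 and 3 (21.3 ± 1.68 TPM, SD, n = 3), of which Fos made up 88.5 ± 1.57%. The ratio of the Jun group to the Fos group was 20.96, 13.9 and 14.3, with a mean of 16.4 ± 3.97 (SD, n = 3). Atf3, Batf and Batf2 together summed to 993, 882 and 941 TPM, with a mean of 938 ± 55.7 TPM (SD, n = 3). They made up 71.99 ± 3.99% of the summed TPM of the 10 genes, the Jun group 26.4 ± 4.10% and the Fos group 1.63 ± 0.144% (SD, n = 3 each). This order of the 3 groups was the same in every library. Batf alone took 30.8 ± 1.69% and Atf3 29.7 ± 5.34%, and the Atf3 share was 23.7% in replicate 1, against 33.75% and 31.8% in replicates 2 and 3. These are shares of mRNA, and the amounts of protein or of dimers were not measured.

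**Figure D2:**
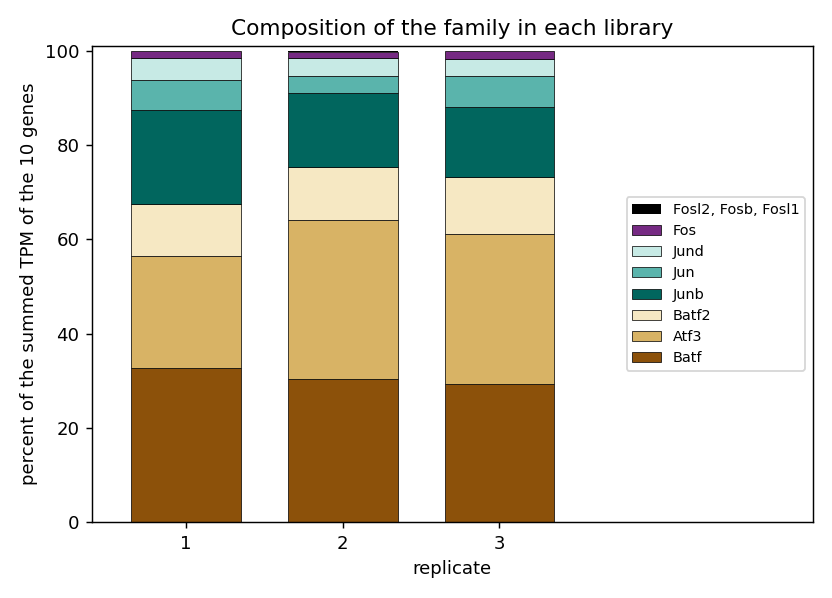
Share of each gene in the summed TPM of the 10 genes, as stacked percent per library. Atf3, Batf and Batf2 (brown shades, at the foot) made up 67.6, 75.3 and 73.1% in replicates 1, 2 and 3, and the Fos group is the thin band at the top.

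Over the ordered list, 5 of the 9 neighbouring pairs were apart. These were Junb over Batf2 (0.55 ± 0.25), Batf2 over Jun (1.11 ± 0.44), Jund over Fos (1.46 ± 0.34), Fos over Fosl2 (3.04 ± 0.32) and Fosl2 over Fosb (3.47 ± 0.34), as differences of log2(TPM + 0.1) (SD, n = 3). With a pseudocount of 0.01 or 1 in place of 0.1, Fosl2 over Fosb was 4.25 or 1.53, so its size depends on that choice, and it stayed apart. Neighbours that were not apart were Batf and Atf3, Atf3 and Junb, Jun and Jund, and Fosb and Fosl1. Atf3 exceeded Junb in 3 of 3 libraries, by 0.26, 1.09 and 1.08, but the mean of 0.81 was under 2 SD of 0.48. Of all 45 pairs, 41 were apart, and the 4 exceptions were those neighbours. With 3 libraries no exact test of a pair can pass 0.05, so no p-value is given for the order.

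Set among the 53 bZIP genes, the 10 genes took the top 4 places and several lower ones. Batf, Atf3, Junb and Batf2 ranked 1, 2, 3 and 4 by mean TPM, Jun 11, Jund 14, Fos 23, Fosl2 40, Fosb 47 and Fosl1 48. In replicate 1, Batf2 ranked 5, below Maf. Of the other 43 bZIP genes, 33 were detected and the median level was 13.4 TPM. The highest of these was Maf, a regulator of Il10 in macrophages, at 181, 93.6 and 129 TPM in replicates 1, 2 and 3. Nfe2l2, which encodes the oxidative stress factor NRF2, followed at 129 ± 32.04 TPM, and Cebpb, a factor of myeloid inflammation, at 128, 43.0 and 83.9 TPM. The retinal factor gene Nrl had no counts. The 10 genes held 54.8, 55.5 and 52.6% of the summed TPM of all 53 bZIP genes, a sum of 2413 ± 289 TPM (SD, n = 3).

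**Figure D3:**
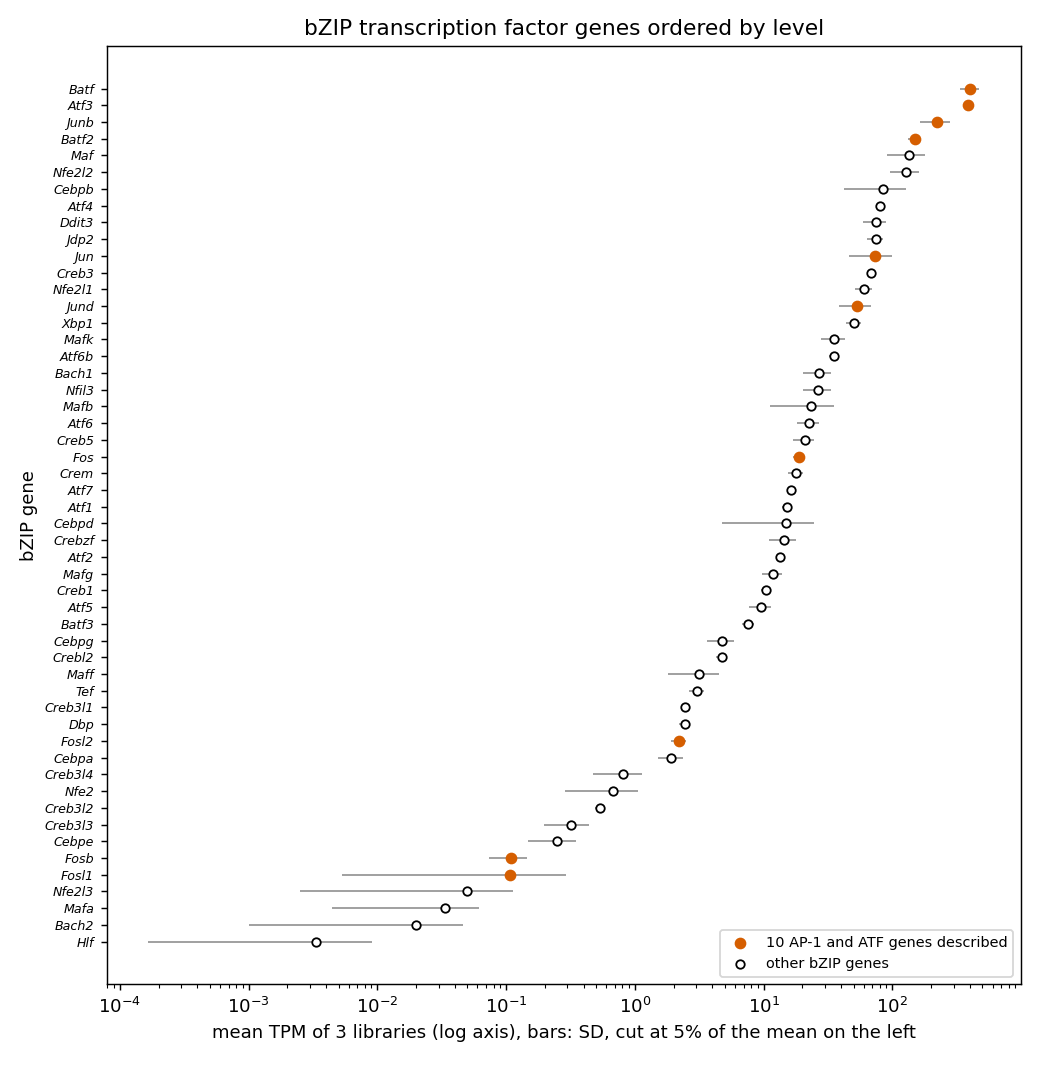
Mean TPM over 3 libraries (log axis) of the bZIP genes with any count, ordered from the highest at the top, with SD bars; filled points are the 10 AP-1 and ATF genes and open points the other bZIP genes. The top 4 places are Batf, Atf3, Junb and Batf2, while Fosb and Fosl1 stand at ranks 47 and 48 of 53.

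Within the single group, the question left to a test was whether a gene differed between the 3 libraries by more than counting error. Rounded expected counts, scaled by the TMM method of edgeR, were tested by chi-square (degrees of freedom: 2) for the 12414 genes that averaged 10 counts or more. Among the 10 genes, 8 had enough counts to be tested and 8 of those were called at a Benjamini-Hochberg adjusted p under 0.05, beside 70.9% of all genes tested. All of the tested ones averaged at least 100 counts, and 80.1% of the 9075 genes at that depth were called, so a call alone is common.

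Jun differed most between libraries. Its TMM-scaled CPM values, counts scaled to a common library size, were 186, 79.8 and 164 in replicates 1, 2 and 3, and the highest was 2.33 times the lowest, with a p below the smallest value the software writes. The coefficient of variation (SD over mean) of its TPM was 36.9%, and 92.5% of the genes that averaged at least 100 counts had a lower one. For those 9075 genes the quartiles of the coefficient were 8.84, 14.9 and 23.2%. Jund (27.7%) and Junb (26.6%) also lay above the upper quartile, with highest over lowest ratios of scaled counts of 1.77 and 1.69 (chi-square adjusted p = 1.85e-61 and 2.8e-261). By scaled counts, all 3 Jun genes were highest in replicate 1 and lowest in replicate 2. Batf and Batf2 had the same high and low libraries, with smaller coefficients of 16.4 and 11.8% and ratios of 1.48 and 1.35 (chi-square adjusted p = 1.89e-102 and 2.64e-32).

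Atf3 was the steadiest of the genes by this measure in the first quantification. Its coefficient of variation was 8.31%, below the lower quartile, and the highest library was 1.16 times the lowest by scaled counts (chi-square adjusted p = 7.1e-37). By scaled counts, Atf3 was lowest in replicate 1, where the Jun genes were highest. Fos had a coefficient of 9.60% and a ratio of 1.27 (chi-square adjusted p = 4.27e-06), and without replicate 2 the remaining libraries did not pass (chi-square adjusted p = 0.582). Fosl2 had 13.5% and 1.24 (chi-square adjusted p = 0.00795), and without replicate 3 it did not pass either (chi-square adjusted p = 0.821). Fosl2 was nearly level in replicates 1 and 2, at 9.85 and 9.82 TMM-scaled CPM, and by TPM its highest library was replicate 2. In the second quantification, described below, Atf3 was not the steadiest. There it stood at 331 ± 43.0 TPM, against 127 ± 4.45 TPM for Batf2 and 15.8 ± 0.575 TPM for Fos (SD, n = 3 each).

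**Figure D4:**
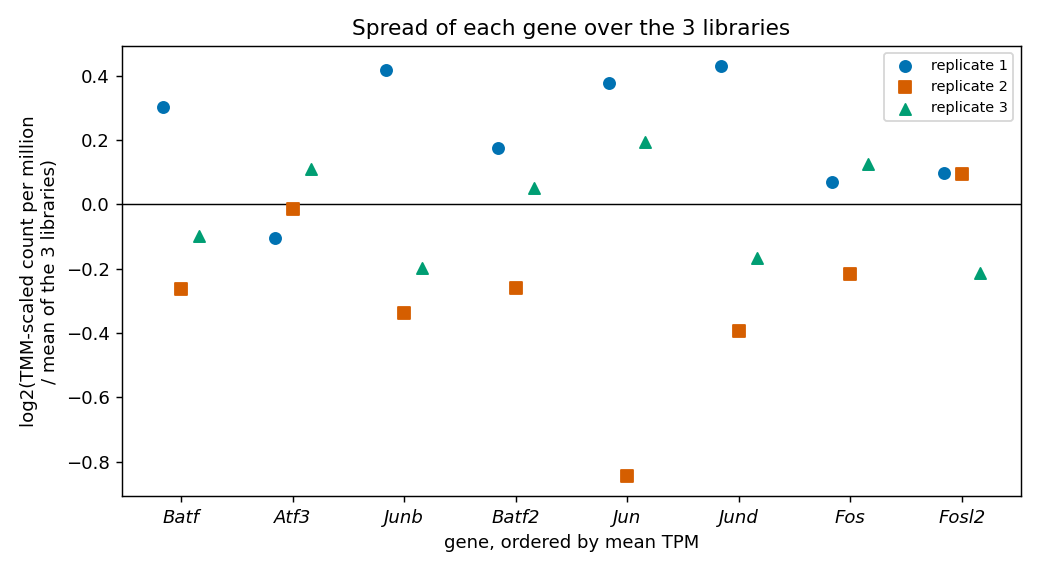
TMM-scaled CPM of each library over the mean of the 3 libraries, on the log2 scale, for the 8 genes that could be tested. Replicate 2 (squares) is the lowest library of 6 genes, furthest below for Jun, while Atf3 is lowest in replicate 1.

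The direction of these differences was shared by several genes. In the first quantification, 6 of the 8 tested genes had their highest scaled count in replicate 1 and 2 in replicate 3, and 6 had their lowest in replicate 2. Over all 12414 genes, 33.9% were highest in replicate 1 and 39.1% lowest in replicate 2. Replicate 2 also differed in markers of another cell type: the 11 neutrophil genes checked summed to 28.0, 428 and 25.2 TPM in replicates 1, 2 and 3. All 11 had their highest level in replicate 2, Cxcr2 sharing it with replicate 3, and S100a9, a calprotectin subunit, led the list at 14.8, 237 and 12.4 TPM. Only 3 of the 11 reached 1 TPM in every library, and their part in the lower Jun levels of replicate 2 was not tested. The expected counts of the libraries totalled 26589042, 34344922 and 48356527, so replicate 2 was neither the shallowest nor the deepest.

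The label of the cells was checked against markers. All 9 macrophage genes were detected at a median level of 756 TPM, led by the lysozyme gene Lyz2 at 12920 ± 2539 TPM (SD, n = 3). Of 7 T cell genes, 2 were detected, led by the kinase gene Lck at 12.8, 22.6 and 30.9 TPM, while Cd3d and Cd3g had no counts. Of 6 dendritic cell genes, 1 was detected, the chemokine receptor gene Ccr7 at 4.16, 17.8 and 4.68 TPM, again highest in replicate 2. None of the 5 B cell, 5 mast cell and basophil, 5 fibroblast and 5 erythroid genes was detected. Their highest members were Cd79b at 0.847 ± 0.460 TPM, Prss34 at 0.61 ± 0.928 TPM, Col3a1 at 0.393 ± 0.343 TPM and Hba-a1 at 0.143 ± 0.248 TPM (SD, n = 3 each).

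The reads of most of these genes fell on 1 protein-coding transcript. GENCODE M21 lists 33 transcripts for the 10 genes, 18 of them protein-coding, and the deposited percent values give each transcript's share of its gene's TPM. Jun and Jund have 1 annotated transcript each, so their share of 100% was set by the annotation. Junb-201 took 100% in every library, and Atf3-201, Batf-201, Fosl2-201 and Fos-201 averaged 99.99, 99.33, 99.46 and 98.92%. For Fosb and Fosl1 the shares rest on at most 9 counts. The 1 Fosb count of replicate 1 was placed on Fosb-206, a transcript of 1090 bases, whereas replicate 2 had its counts spread over Fosb-201 and Fosb-207, of 3782 and 3523 bases, and others. Because TPM is per length, 1 count there made 0.07 TPM and 9 counts in replicate 2 made 0.14 TPM.

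Batf2 was the exception among the well-covered genes. Batf2-201, which encodes the full reading frame of 276 codons, took 70.6, 72.2 and 71.9% of the gene's TPM in replicates 1, 2 and 3. The retained-intron transcript Batf2-204 took 12.4, 8.96 and 9.42%, and the processed transcript Batf2-205, with no annotated reading frame, 8.87, 11.0 and 11.1%. With Batf2-207, a second coding transcript, the coding share came to 76.4, 78.3 and 77.3%. The values were close across the libraries. Batf2-204 shares 267 of its 882 bases with Batf2-201 and has 615 of its own, so reads can separate these transcripts, whereas all 1382 bases of Batf2-207 lie within Batf2-201.

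A second quantification of the same libraries, made directly from reads and an index, named the same leading transcript by mean share for the 8 detected genes. For Jun and Jund, with 1 annotated transcript each, it could name no other. The shares differed for Atf3 and Fos. There Atf3-202, a processed transcript of 517 bases, stood at 47.8, 20.9 and 6.37 TPM, where the alignment-based table listed 0, and the coding share of Atf3 was 83.4, 94.4 and 98.1%. All 517 bases of Atf3-202 are shared with Atf3-201, but Atf3-202 has 5 exons against 4, so their exon junctions differ. Fos-202, of 631 bases, stood at 2.04 TPM in replicate 1 and at 0 in the others, and the coding share of Fos was 86.0, 99.1 and 97.4%. Both were highest in replicate 1. There Fos-202 held 23.2 estimated counts, 2.93% of the gene's counts, against 13.0% of its TPM. Atf3-202 held 385 in that library, 2.94% of the gene's counts, against 16.6% of its TPM. TPM is per length, so a short transcript takes a larger share of TPM than of counts. For Batf2 the second quantification gave coding shares of 69.7, 75.5 and 72.6%, below the first in every library, and Batf2-202 took 8.015, 4.58 and 6.12%, against 2.28, 1.61 and 2.16% in the first.

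**Figure D5:**
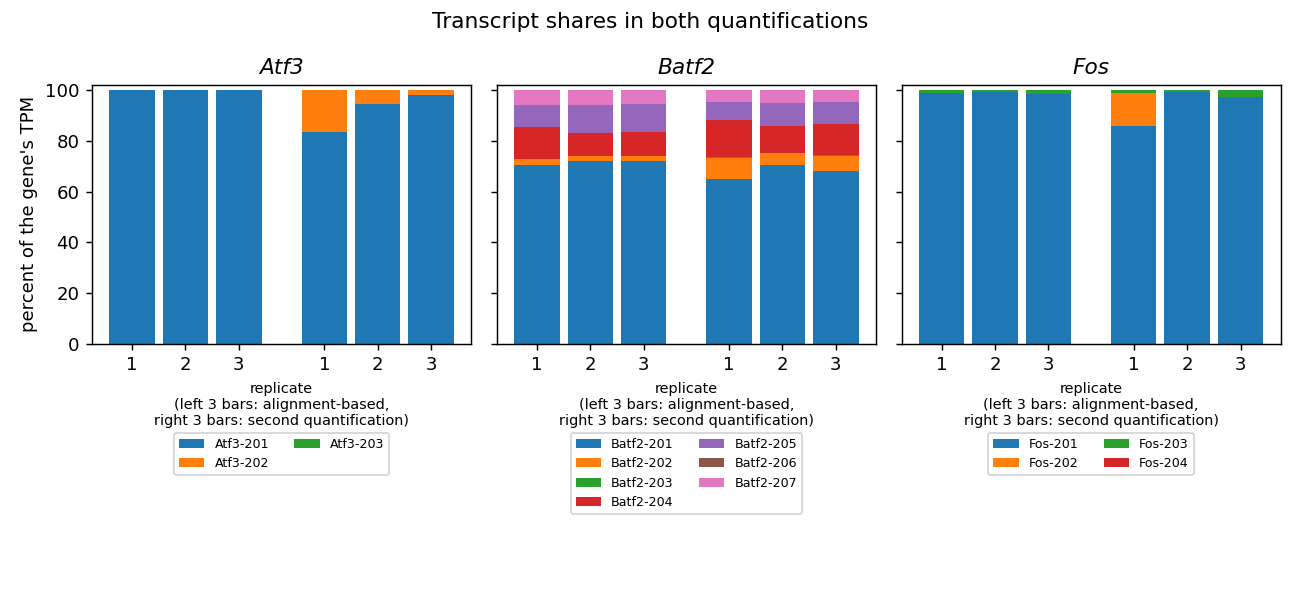
Percent of each gene's TPM on its transcripts for Atf3, Batf2 and Fos, by replicate, in the alignment-based quantification (left 3 bars of each panel) and in the second quantification (right 3 bars). Atf3-202 and Fos-202 appear in the second quantification alone, most in replicate 1, and Batf2-202 takes a larger share of Batf2 in the second quantification.

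Neighbouring genes share bases with some of these genes. The labels and headers do not state whether strand was used in counting, so reads of genes on opposite strands cannot be told apart. Jund overlaps the antisense gene Gm11175 over 877 exon bases, which stood at 3.39, 0.49 and 0 TPM in replicates 1, 2 and 3. Its expected counts were 16.9, 1.57 and 0, against 1708, 1379 and 2086 for Jund. In the second quantification Gm11175 had 0, 1.53 and 0 estimated counts. The second quantification gave Jund a relatively higher level: its ratio to the first was 1.21, 1.29 and 1.22 times the median ratio of 9073 to 9074 genes, against 0.919 to 1.08 times for the other 7 detected genes. The cause of the higher Jund ratio was not tested. Jun overlaps the antisense Junos over 232 exon bases, at 0.32, 0.23 and 0.54 TPM, far below Jun itself. Junb shares 173 exon bases with Prdx2, a peroxiredoxin gene on the opposite strand, which stood at 142, 158 and 154 TPM. These bases belong to Junb-202, which shares no bases with Junb-201 and had no counts in either quantification. Batf2 shares 51 exon bases with Arl2, at 16.6, 20.96 and 20.5 TPM. These belong to the transcript Batf2-203, which took 0.09, 0.13 and 0% of the Batf2 TPM in replicates 1, 2 and 3. In the second quantification it took 0.420, 0.348 and 0.148%. Fosl1 shares 1163 exon bases with Ccdc85b, at 0.13, 0.19 and 0.14 TPM.

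Promoter sequence was available from RefSeq on GRCm38.p6 for 8 of the 10 genes, all but Fosl1 and Batf2. The 250 bases before the RefSeq start were searched on both strands for 7 short motifs, and the share of all 32851 promoters with a match is given beside each. The short form of the cAMP response element, TGACGT, was in Fos, Atf3 and Batf (6.47% of all promoters). The Jun-type site TGACATCA was in Jun (2.93%), and the TATA box letters TATAAA in Fos (12.4%). The 100 bases before the start are shown for these 4 genes because their matches all lie there, with the matches in capitals. They are chr12:85473790-85473889 and chr12:85686620-85686719 on the plus strand and chr1:191183334-191183433 and chr4:95052223-95052322 on the minus strand.
Fos promoter: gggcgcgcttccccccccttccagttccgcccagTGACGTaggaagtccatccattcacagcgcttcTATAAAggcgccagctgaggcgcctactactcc
Batf promoter: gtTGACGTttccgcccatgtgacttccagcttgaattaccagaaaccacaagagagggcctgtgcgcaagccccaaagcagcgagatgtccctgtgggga
Atf3 promoter: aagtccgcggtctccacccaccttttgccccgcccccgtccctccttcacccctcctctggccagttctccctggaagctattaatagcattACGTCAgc
Jun promoter: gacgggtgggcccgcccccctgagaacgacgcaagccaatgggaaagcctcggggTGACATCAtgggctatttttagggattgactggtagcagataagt
In Fos the short element lies 66 to 61 bases before the start and its TATA letters 33 to 28. In Batf it lies 98 to 93 bases before the start, in Jun the site lies 45 to 38 before it, and in Atf3 the short element reads on the opposite strand, 8 to 3 before it. The interferon response core, GAAA, any 2 bases and GAAA again (2.98%), was in Fosl2 alone, 221 to 212 bases before the start. The AP-1 site TGANTCA (6.75%), the full element TGACGTCA (1.55%), which contains the short element, and 1 form of the kB site, GGGA followed by any base and TTTCC (0.356%), matched none of the 8. A match is a description of letters, and no match says only that these letters were not in this window. The GENCODE start of the first-numbered transcript lay within 7 bases of the RefSeq start for Atf3, Jun, Fos and Fosb, 51 bases upstream for Batf, 30 bases downstream for Junb, 671 upstream for Fosl2 and 1210 downstream for Jund. The Fosl2 match thus lies downstream of the GENCODE start, and the window searched for Jund does not adjoin its GENCODE start. For Atf3 the GENCODE start lies 7 bases upstream of the RefSeq start, so the match spans it and lies mostly within the GENCODE transcript.

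Lists of other bZIP genes and of upstream, immediate early, partner, turnover and target genes held 116 entries, with Creb1 and Batf3 in 2 lists each. Of these entries 95 were detected, beside 48.5% of all genes with any count. Of 16 kinases upstream of AP-1, 14 were detected and the median level was 20.0 TPM, and 12 of 15 tested genes varied between libraries by the chi-square test, beside 70.9% of all genes tested and 80.1% of those that averaged at least 100 counts. Mapk3, which encodes ERK1, stood at 81.0 ± 3.83 TPM, Rps6ka3, which encodes the ERK-dependent kinase RSK2, at 66.8 ± 10.9 TPM and Map3k8, the kinase TPL2 that links Toll-like receptors to ERK, at 56.3 ± 5.29 TPM (SD, n = 3 each). Mapk10, the JNK gene expressed mainly in neurons, had no counts. All 8 genes of the SRF and CREB arm upstream of Fos were detected at a median level of 10.2 TPM. Of these, 7 of 8 varied, beside the same 70.9% of all genes tested and 80.1% of those that averaged at least 100 counts. The CREB coactivator gene Crtc2 stood at 25 ± 1.78 TPM, the SRF coactivator gene Mrtfa at 20.4 ± 3.99 TPM and Srf at 11.4 ± 0.905 TPM, and Mrtfb was lowest at 5.33 ± 0.772 TPM (SD, n = 3 each).

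Other immediate early genes had levels at both ends of the range. Of 16, 11 were detected and the median level was 4.24 TPM, and 11 of 14 tested genes varied, near the 70.9 and 80.1% of genes in general. Klf6, a zinc-finger factor, stood at 315 ± 20.6 TPM, Dusp1, a phosphatase that inactivates p38 and JNK, at 97.2 ± 16.9 TPM and Ier3 at 86.9 ± 16.5 TPM, while Ccn1, a matricellular protein gene, stood at 0.11 ± 0.0458 TPM (SD, n = 3 each). Klf6 thus lay between Atf3 and Junb by mean, and Ccn1 at the level of Fosb.

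Of the 3 genes listed as BATF partners, 2 were detected. Irf8, which encodes a myeloid interferon regulatory factor, stood at 143, 175 and 146 TPM in replicates 1, 2 and 3 (155 ± 17.7 TPM, SD, n = 3), with replicate 2 the high library. Batf3 stood at 7.59 ± 0.813 TPM, and Irf4, the other regulatory factor known to bind with BATF, at 0.333 ± 0.0451 TPM (SD, n = 3 each). Irf8 was the one of the 3 that varied between libraries by the chi-square test (adjusted p = 7.38e-29), beside 70.9% of all genes tested. It had 6287, 10490 and 11878 expected counts, against 69, 83 and 89 for Batf3 and 23, 40 and 47 for Irf4. The calls of the 3 genes thus differ in depth and are not comparable. Batf stood far above Batf3 in every library.

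All 10 genes known for turnover of AP-1 proteins or mRNAs were detected at a median level of 31.1 TPM, and 8 of 10 varied, near the 80.1% of genes in general at high counts. Zfp36, which encodes tristetraprolin, a protein that binds AU-rich mRNAs and speeds their decay, stood at 340 ± 31.2 TPM. Hnrnpd, another AU-rich element binder, stood at 129 ± 13.1 TPM and Cop1, a ubiquitin ligase that targets JUN, at 69.6 ± 10.9 TPM, whereas the COP1 adaptor gene Det1 was lowest at 2.55 ± 0.320 TPM (SD, n = 3 each). Of 20 genes known as targets of AP-1 or ATF3, 17 were detected and the median level was 119 TPM, and 17 of 18 tested genes varied, beside 70.9% of all genes tested and 80.1% at high counts. Spp1, which encodes osteopontin, stood at 2599 ± 125 TPM, and the chemokine genes Ccl4 and Ccl2 at 2430 ± 551 and 1113 ± 132 TPM (SD, n = 3 each). Mmp3, a matrix metalloproteinase gene, had 1 count in replicate 1 and none elsewhere. These target genes answer to other factors too, and their levels say nothing here on AP-1 activity.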

How the data were processed

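Polyadenylated RNA was sequenced from 3 libraries, with 1 µg of starting RNA and a size range of 250 to 400 per the labels. The deposited readme names assembly mm10 and GENCODE M21, and which programs were run is not given in the sources used here. The authors' gene tables hold expected counts, fractional counts assigned by a model without scaling between libraries, and TPM, which sums to the same total in each library, per the file headers. The deposited transcript tables add percent values, which split each gene's TPM over its transcripts. A second deposited quantification, made from reads and an index, holds estimated counts and TPM per transcript, which were summed per gene. Gene entries held 26589042, 34344922 and 48356527 expected counts, and entries without a gene identifier held 0.068 to 0.127% of counts and were left out.

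Expected counts were rounded and scaled by TMM (edgeR 4.0.16, R 4.3.3), and each gene with a mean count of at least 10 was tested against equal abundance in the 3 libraries by chi-square, Benjamini-Hochberg adjusted over all 12414 genes at 0.05. Such p-values measure the spread between these libraries, which may be technical, against counting error. On simulated counts of 12431 genes for this comparison, 38, 72, 82 and 96% of 50 genes each set 1.2, 1.5, 2 and 3-fold apart in 1 library were recovered, and 0.0409% of unchanged genes were called. The simulated counts held counting error alone, with no other spread between libraries. These shares therefore check the calculation and are not error rates for the real libraries. With 1 group no comparison between conditions was possible, and no correlation over 3 samples was computed.

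The 10 genes, the gene lists and the rules were chosen with earlier results of these data known. The text names all 10 genes, of each pathway list the 3 genes with the highest and the gene with the lowest mean TPM, and of each marker list the highest, and it names no gene for a pattern like a member's. Further genes are named where a count or an overlap turns on them, after their values were seen. Alternatives were DESeq2 1.42.0 size factors, other count filters, pseudocounts and detection limits, TPM rescaled over protein-coding genes, the second quantification, and leaving out each library. Promoters came from RefSeq (GRCm38.p6) and coding sequences from GENCODE M21 transcripts, of which some are not reported here. Other software was scipy 1.17.1, pandas 2.3.3, numpy 2.4.6 and matplotlib 3.10.9 under Python 3.11.15.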

Additional observations from a re-analysis of the deposited data

How the results depend on the processing

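The number of genes that varied between libraries, 8799, ranged over 5299 to 7459 with a library left out. The 5299 came without replicate 2. It was 8831 with DESeq2 size factors, 9075 without a count filter, 7932 at a mean count of at least 50 and 10147 in the second quantification. The 8 tested genes kept their calls under each of these settings except Fos without replicate 2 (chi-square adjusted p = 0.582) and Fosl2 without replicate 3 (chi-square adjusted p = 0.821). The summed level of the 10 genes, 1309 TPM, was 1512 TPM when TPM was rescaled over protein-coding genes of the nuclear genome and 1085 TPM in the second quantification, where the median gene stood at 0.764, 0.946 and 0.849 times its first value in replicates 1, 2 and 3. The order of Batf and Atf3 reversed to -0.06 in the second quantification and ranged over -0.13, without replicate 1, to 0.17 with a library left out (0.07 with all 3), and Fosb and Fosl1 reversed to -0.08 without replicate 2, all on the log2 scale. The cause was not tested. Junb over Batf2 kept its sign but was no longer apart at 0.48 in the second quantification and at 0.58 without replicate 2. With a library left out, the rule for a pair to be apart rests on 2 libraries, so such calls are weaker than those on 3. Without replicate 1, 7 neighbouring pairs were apart in place of 5, and Atf3 over Batf, the reversed pair, was among them. Atf3 over Junb became apart at 0.9 in the second quantification and at 1.09 without replicate 1, Jun over Jund at 0.62 without replicate 2, and Fosb over Fosl1 at 1.01 without replicate 3. The ratio of the Jun to the Fos group ranged over 14.1 to 17.6 with a library left out and was 16.4 in the second quantification. With a pseudocount of 0.01 and 1, Fosb over Fosl1 was 1.85 and 0.02 in place of 0.37, and 5 pairs were apart with either. At a limit of 5 TPM, 6 of the 16 other immediate early genes were detected in place of 11. The counts of Fosb and Fosl1 limit any statement on their levels. No paired analysis was possible because the series has 1 group.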
